A study of Mus musculus with 12 samples.

Results

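TM3 cells, a Leydig cell line of immature Balb/c mouse testis, were exposed to 1 mM methoxyacetic acid (MAA) for 24 h and compared with untreated TM3 cells of the same time. MAA is the active metabolite of ethylene glycol monomethyl ether, an industrial solvent that damages the testis. The comparison was made on 2 of the 12 two-colour Agilent whole-genome mouse arrays of the series, which also covered 3 h and 8 h of 1 mM MAA and the same 3 times at 5 mM. Each array carried RNA pooled from 3 treated cultures and RNA from untreated cells, the 2 arrays held independent pools of treated cells, and the dyes were exchanged between them, so that replicate 1 carried the MAA sample in green and replicate 2 carried it in red. All cells came from this 1 established line, for which no engineered allele is described. A probe counted as measured where either channel was well above background on each of the 2 arrays, which was the case for 28012 of 41174 probes (68.0%).

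Leydig cells lie between the seminiferous tubules and make testosterone from cholesterol through a chain of mitochondrial and microsomal enzymes, under control of luteinizing hormone. MAA is a short-chain carboxylic acid that, like other small acids of this kind, has been described as an inhibitor of histone deacetylases, enzymes that remove acetyl groups from histone tails and thereby restrict transcription. TM3 cells keep some Leydig cell traits and have lost others, and they grow attached to plastic like fibroblasts.

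The control channel of the 2 arrays was used to check the label of the cells. Of 7 Leydig cell markers, Cyp17a1, Star, Insl3 and Nr5a1 were well above background in the control channel on both arrays, whereas Cyp11a1, the side-chain cleavage enzyme, Lhcgr, the luteinizing hormone receptor, and Hsd3b1 were not above it on either. Of 6 fibroblast markers, 5 were above background on both arrays, Thy1 being the exception, and the control signals on replicate 1 were 119000 for Col1a1, 123000 for Col1a2 and 730 for Insl3 (arbitrary units after background subtraction, not comparable between probes). So were 2 of 6 Sertoli cell markers, 2 of 5 germ cell markers, 2 of 5 endothelial markers and 1 of the 3 macrophage markers given a probe here. The pan-leukocyte marker Ptprc and the endothelial markers Pecam1 and Kdr were not above background in either channel. The median log2 ratio of MAA over control over measured probes was -0.03 on replicate 1 and -0.02 on replicate 2, and no called probe was saturated in a channel on both arrays.

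At 24 h, 1 mM MAA raised many more transcripts than it lowered. A probe was called when limma, fitted across the 12 arrays, gave an unadjusted p below 0.005 together with a change of more than 1.5-fold, and 1678 of 28012 measured probes (5.99%) passed. Of these, 1198 (4.28% of measured probes) were higher and 480 (1.71%) were lower in MAA-treated cells. Both cut-offs are those of the study at this concentration, but its p-values came from other software. The largest adjusted p among the 1678 was 0.0461. The increases were also larger: 505 of them, or 42.2%, exceeded 2-fold and 105 exceeded 4-fold, whereas 116 of the decreases (24.2%) exceeded 2-fold and 7 exceeded 4-fold. All 1678 calls had the same direction on both arrays and 1427 (85.0%) were past 1.5-fold on each, and a further 651 measured probes were past 1.5-fold on each array without being called. The calls were chosen on the mean of these 2 arrays, so their likeness between arrays is in part fixed by that choice. The count depended on how background was removed. With normexp correction and loess normalization in place of the scanner's own correction, 407 increases and 93 decreases were called, and the split moved from 71.4% to 81.4% increases.

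**Figure D1:**
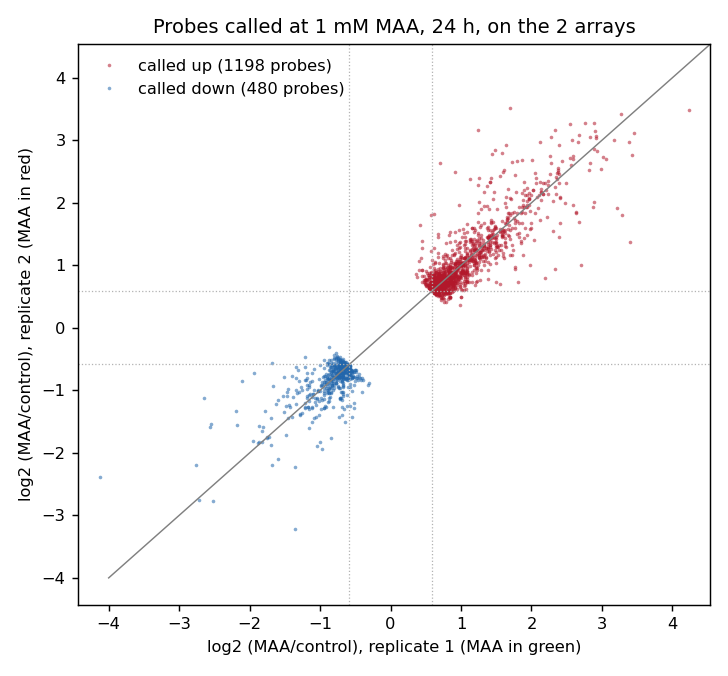
Each point is 1 of the 1678 called probes, placed by its log2 ratio of MAA over control on replicate 1 (horizontal axis) and on replicate 2 (vertical axis), with increases in red and decreases in blue; the diagonal marks equal values and the dotted lines mark 1.5-fold. All called probes lie in the quadrants where both arrays have the same sign, which is in part fixed because calls were chosen on the mean of these 2 arrays. A mean change over 4-fold was reached by 105 increases against 7 decreases.

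Called probes had lower control signals than probes that were not called. The level in untreated cells was taken from the control channel of the 8 arrays of 3 h and 8 h, which did not enter the 24 h ratios. Its median was 84.7 for the increased probes and 128 for the decreased probes, against 805 for measured probes that were not called. In the quartile of lowest control signal, 7.90% of 7003 probes were called up and 2.34% down, and in the quartile of highest control signal 0.800% were called up and 0.457% down. Among the increased probes, 29.7% were not well above background in the control channel of every 3 h and 8 h array, compared with 13.3% of the decreased probes and 13.3% of those not called. A probe could count as measured through its MAA channel alone, so the rule itself favours a dim control channel among increases. Both channels were well above background on both 24 h arrays for 1011 of the 1198 increased and 433 of the 480 decreased probes. The decreased probes also differed in their annotation. A current gene symbol could be given to 147 of the 480 decreased probes (30.6%) and to 825 of the 1198 increased probes (68.9%), beside 59.3% of all measured probes, so that most decreases at this dose and time are on probes that carry no gene name here.

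**Figure D2:**
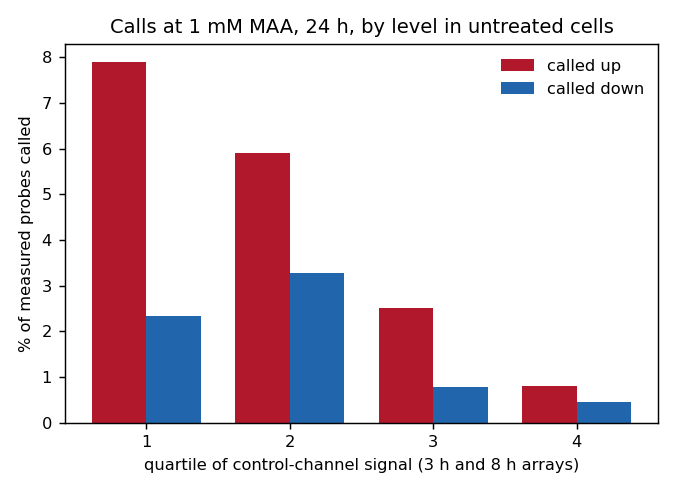
The bars give the percentage of measured probes called up (red) or down (blue) at 1 mM MAA, 24 h, in each quartile of control-channel signal on the 3 h and 8 h arrays, from lowest (1) to highest (4). The share called up falls from 7.90% in quartile 1 to 0.800% in quartile 4, and the share called down is highest in quartile 2, at 3.27%.

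The largest increase in a named gene was that of Tmem255a, which encodes a transmembrane protein. Its signal was 359 in MAA-treated cells and 37.1 in control cells on replicate 1, and 382 and 35.6 on replicate 2. The channels did not overlap on either array, and the mean change was 10.2-fold (log2 ratio 3.35 ± 0.134 SE, adjusted p = 1.24e-04). A second measured probe of the gene, with a log2 ratio of 0.85, was not called. Several genes best known from blood cells followed. Cd52, a glycosylphosphatidylinositol-anchored surface peptide of lymphocytes, read 934 against 123 and 740 against 88.4, a 7.97-fold increase (adjusted p = 2.93e-04). Srgn, the core protein of secretory granule proteoglycans in blood cells, rose 7.36-fold (log2 ratios 3.06 and 2.70, adjusted p = 0.00111). Klre1, a receptor of natural killer cells, had signals of only 88.7 and 70.4 with MAA against 17.3 and 13.6 without, a 5.15-fold increase (adjusted p = 0.00676). The defining leukocyte marker Ptprc read 2.20 with MAA and 1.89 without on replicate 1, not above background, while Adgre1, the macrophage marker known as F4/80, read 25.8 with MAA and 3.49 without and was at least 3.08-fold higher. Of the 3 macrophage markers given a probe here the remaining one, Cd14, had a log2 ratio of -0.31 and was not called. The macrophage markers Cd68 and Csf1r were given no probe here, although the study names Csf1r among its later responders to 5 mM MAA. The part of such cells in these increases was not tested.

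The other genes among the 12 largest increases had roles in metabolism and matrix. Chst1, a sulfotransferase that acts on keratan sulfate, had the smallest error of the group, with log2 ratios of 2.56 and 2.60 (5.96-fold, SE 0.0605, adjusted p = 1.27e-05). Slc36a2, a proton-coupled amino acid transporter, had the largest error: its signals were 100 and 79.8 with MAA against 12.7 and 13.8 without (log2 ratio 2.76 ± 0.488 SE, adjusted p = 0.0128). Fmo2, a flavin-containing monooxygenase, read 2830 and 2420 with MAA against 548 and 431 without, and both of its measured probes were called (log2 ratios 2.25 and 2.43). Prr9, a proline-rich gene of the epidermal differentiation complex, read 520 against 73.4 and 367 against 58.9 (6.64-fold, adjusted p = 9.95e-04). Lum, which encodes lumican, a keratan sulfate proteoglycan of collagen fibrils, rose 4.88-fold (log2 ratios 2.33 and 2.25, adjusted p = 5.29e-04).

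**Figure D3:**
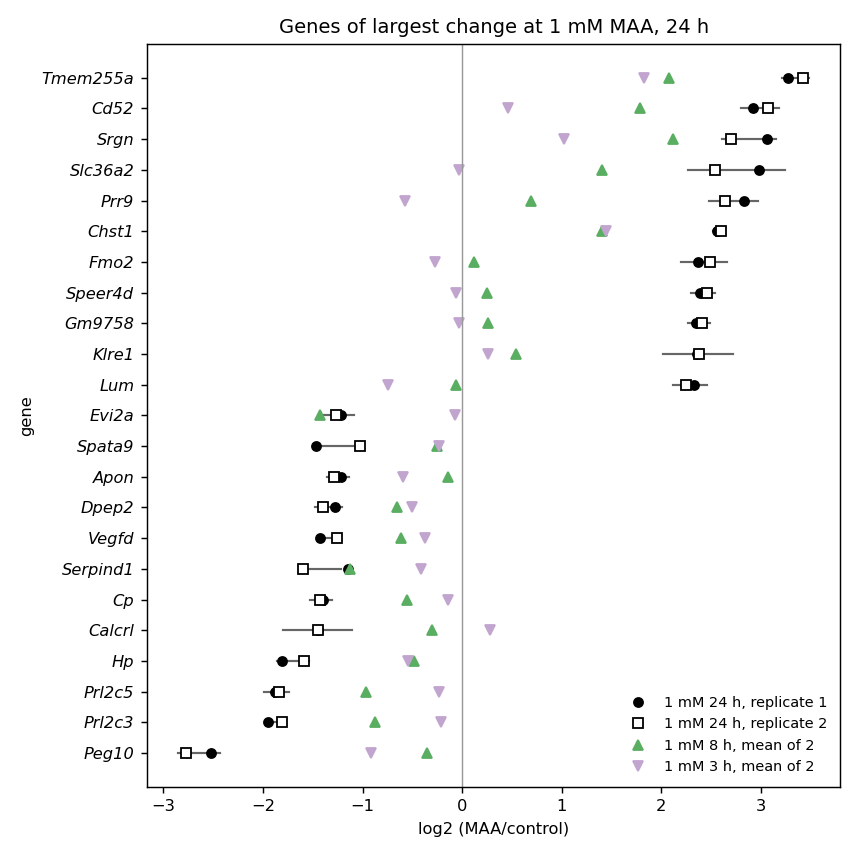
For 11 of the 12 named genes of largest increase and the 12 of largest decrease at 1 mM MAA, 24 h, filled circles and open squares give the log2 ratio of MAA over control on each of the 2 arrays, and the grey bar spans the mean ± 1 SE from limma; triangles give the mean of 2 arrays at 8 h (pointing up) and 3 h (pointing down). For Fmo2, Speer4d, Gm9758 and Lum the 3 h and 8 h means lie between -0.74 and 0.26.

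Speer4d and Gm9758, members of a spermatogenesis-associated glutamate-rich protein family clustered on chromosome 5, moved alike. Speer4d read 329 with MAA and 63.0 without on replicate 1 and 277 and 50.3 on replicate 2 (5.37-fold, adjusted p = 1.24e-04), and both probes of Gm9758 were called with log2 ratios of 2.36 and 2.38. Another member, Speer4a, was also called up, with a log2 ratio of 2.15. The family consists of near-identical copies, so that the probes may not tell the members apart. The likeness extends upstream of the genes, as is seen in 90 bases that end before the annotated transcription start of each (RefSeq, GRCm38.p6), with capitals marking bases that differ from Speer4d. Speer4d lies at chr5:15618974-15619063 on the plus strand, Gm9758 at chr5:14914899-14914988 and Speer4a at chr5:26039553-26039642, both on the minus strand.
Speer4d: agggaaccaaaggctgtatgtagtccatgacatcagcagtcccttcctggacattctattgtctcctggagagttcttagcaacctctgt
Gm9758: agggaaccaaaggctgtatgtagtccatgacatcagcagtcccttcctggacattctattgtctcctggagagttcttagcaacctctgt
Speer4a: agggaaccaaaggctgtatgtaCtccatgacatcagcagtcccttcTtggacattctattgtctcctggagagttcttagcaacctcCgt
Gm9758 matched Speer4d at all 90 bases and Speer4a at 87, with 3 differences.

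Peg10, a paternally expressed imprinted gene derived from a retrotransposon, fell the most. It read 22.2 with MAA and 127 without on replicate 1 and 19.4 and 132 on replicate 2, a 6.25-fold decrease (log2 ratio -2.64 ± 0.209 SE, adjusted p = 6.28e-04). The MAA signal was dim on both arrays, and with normexp correction the log2 ratio was -0.79 and the probe was not called. The proliferins, growth factors of the prolactin family, followed. Prl2c3 fell from 3850 to 1000 and from 3370 to 960 (log2 ratios -1.95 and -1.81, adjusted p = 1.24e-04), and all 3 of its measured probes were called. Prl2c5 fell from 4680 to 1270 and from 3940 to 1100 (adjusted p = 3.85e-04), with both of its probes called. These genes are again near-identical copies and their probes may cross-react. The 80 upstream bases printed here differ at 2 positions, shown in capitals in Prl2c5; Prl2c3 lies at chr13:12800081-12800160 on the minus strand and Prl2c5 at chr13:13182634-13182713 on the plus strand.
Prl2c3: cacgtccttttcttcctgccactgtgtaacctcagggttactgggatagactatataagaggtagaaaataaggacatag
Prl2c5: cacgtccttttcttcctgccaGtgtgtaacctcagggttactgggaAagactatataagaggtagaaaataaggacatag

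Among the other decreases, Hp, encoding the hemoglobin-binding protein haptoglobin, read 350 in control cells and 99.7 with MAA on replicate 1, and 303 and 101 on replicate 2 (3.25-fold lower, adjusted p = 0.00109). Cp, encoding the copper-carrying ferroxidase ceruloplasmin, had log2 ratios of -1.40 and -1.43 (adjusted p = 6.14e-04), and Serpind1, the thrombin inhibitor heparin cofactor II, of -1.15 and -1.60 (adjusted p = 0.00306). Vegfd, a lymphatic growth factor, read 11700 and 10000 in control cells and 4350 and 4160 with MAA (2.54-fold lower, adjusted p = 2.62e-04). Calcrl, the receptor for adrenomedullin and calcitonin gene-related peptide, had a log2 ratio of -1.45 on both arrays and a larger error (SE 0.347, adjusted p = 0.0373). Dpep2, a membrane dipeptidase, Apon, Spata9 and Evi2a made up the rest, with log2 ratios of -1.34, -1.25, -1.25 and -1.24. A second measured probe of Spata9, with a log2 ratio of -0.27, was not called. With normexp correction all 12 increases were called, but only 6 of the 12 decreases were, namely Prl2c3, Prl2c5, Hp, Cp, Vegfd and Evi2a.

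For 105 increased and 26 decreased probes neither array had the weaker channel well above background, so that the fold is a lower bound, taken against the higher of the probe's own signal and the dimmest signal that was well above background on that array. Olfml1, an olfactomedin-like secreted protein, read 47.6 and 38.6 with MAA and was at least 5.09-fold higher (adjusted p = 0.00161). Ceacam10, a carcinoembryonic antigen family member, was at least 4.17-fold higher (adjusted p = 4.38e-04) and Kcnmb4, an accessory subunit of the large-conductance calcium-activated potassium channel, at least 3.00-fold higher (adjusted p = 4.99e-04). Tspan18, a tetraspanin, was at least 2.70-fold higher and Daw1, an axonemal dynein assembly factor, at least 1.95-fold higher. In the other direction Isl2, a LIM homeobox factor of motor neurons, was at least 1.76-fold lower (adjusted p = 0.00469), Ermap at least 1.5-fold lower (adjusted p = 0.0428) and Cstdc6 at least 1.33-fold lower (adjusted p = 0.00878). All of these transcripts were dim even in their brighter channel, and none was called with normexp correction.

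The genes were then grouped into 44 lists of pathways and families, with 1 probe per gene, and each list was read against all 11838 measured genes, of which 664 (5.61%) were called up and 100 (0.845%) down with a median log2 ratio of 0.00. At least 1 gene was called in 40 of the 44 lists. The counts describe the lists and were not tested, and many depended on the background correction: with normexp, 39 of the 100 genes named from the lists were called.

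**Figure D4:**
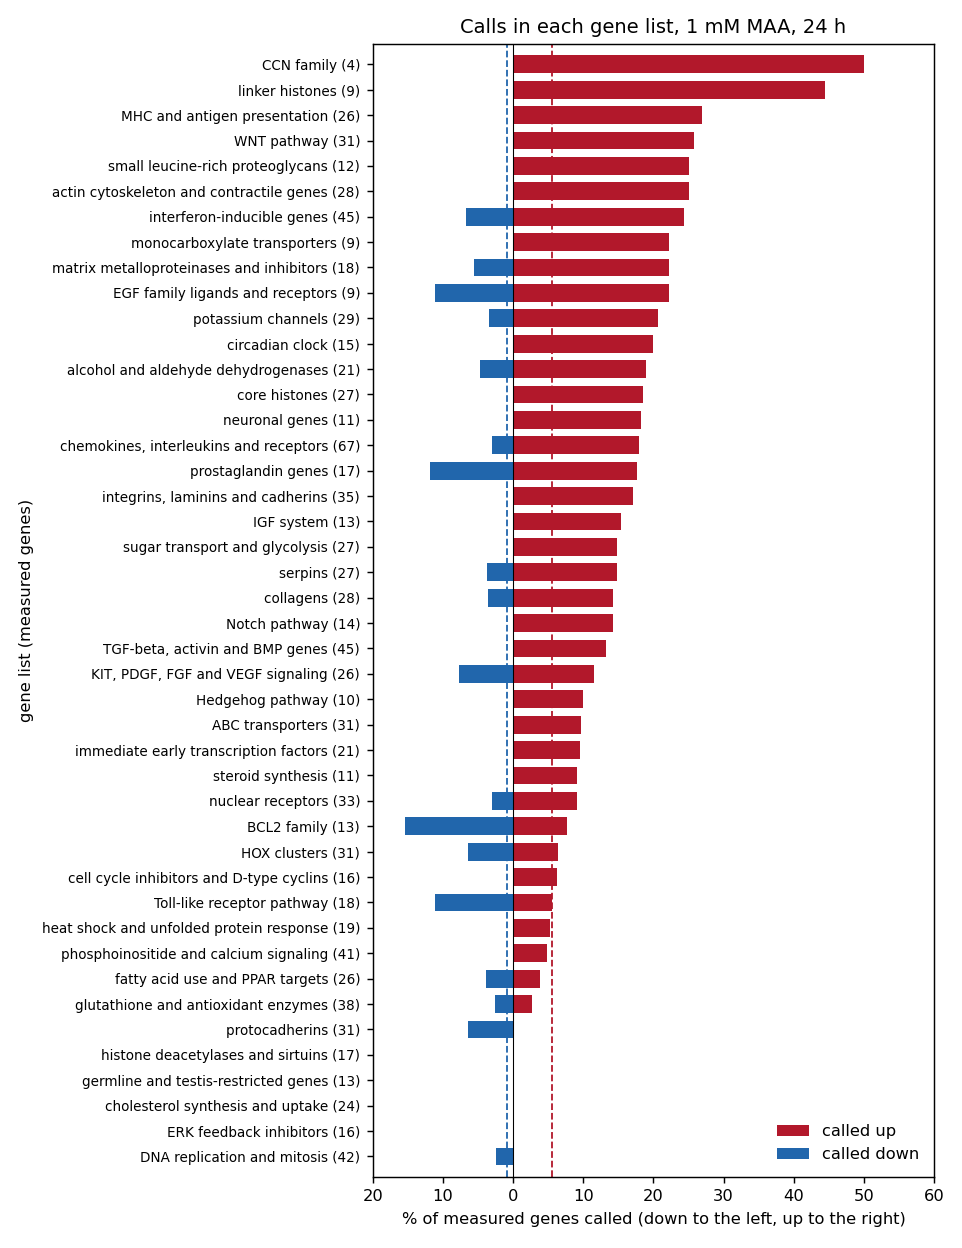
Bars give the percentage of measured genes called up (red, to the right) and called down (blue, to the left) at 1 mM MAA, 24 h, in each of 44 gene lists, with the number of measured genes in parentheses; dashed lines mark 5.61% up and 0.845% down over all 11838 measured genes. The shares called up are highest for the CCN family (2 of 4 genes), linker histones (4 of 9) and MHC genes (7 of 26), of which 1, 1 and 2 genes were called up with normexp correction.

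Of 26 measured genes of the major histocompatibility complex (MHC) list, 7 were called up and 0 down (median log2 ratio 0.49), and 2 were called up with normexp correction, H2-Ab1 and H2-Oa not among them. The class II genes H2-Ab1 and H2-Oa had log2 ratios of 2.55 (2.43 and 2.67, adjusted p = 7.52e-04) and 2.35 (2.01 and 2.69, adjusted p = 0.00282), with control signals of 9.20 and 6.71 for H2-Ab1, near background. Cd74, the invariant chain that accompanies class II molecules, read 2850 against 909 and 2560 against 781, a log2 ratio of 1.68 (adjusted p = 5.59e-04), and was called with normexp too. Of 45 interferon-inducible genes, 11 rose and 3 fell (median 0.28), which became 4 and 1 with normexp correction, without Oas1d, Gbp8 and Gbp4. Oas1d, an oligoadenylate synthetase paralog, had a log2 ratio of 2.46 but a control signal of 3.21 and 2.26, not well above background, and was at least 1.74-fold higher. Gbp8 and Gbp4, guanylate-binding proteins, had log2 ratios of 1.22 and 1.03, while the related Gbp2b was lower, at -0.83 (adjusted p = 0.00484). The immunoproteasome subunits split in the same way, with Psmb9 at 0.86 (adjusted p = 5.54e-04), Psmb8 at 0.82 (adjusted p = 0.00166) and Psmb10 at -0.75 (adjusted p = 0.00109).

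Of 67 measured chemokines, interleukins and their receptors, 12 rose and 2 fell (4 and 2 with normexp correction). Cxcl10, an interferon-induced chemokine, read 2100 against 794 and 2360 against 850 (log2 ratio 1.44, adjusted p = 1.61e-04), and the alarmin Il33 had a log2 ratio of 1.06 (adjusted p = 1.81e-04). Cxcl13, a B-cell attractant, was at least 2.31-fold higher and Il7r, the interleukin 7 receptor, at least 1.70-fold higher. In the Toll-like receptor list 1 of 18 genes rose and 2 fell, none of them called with normexp. Tlr1 had a log2 ratio of 0.90 (adjusted p = 7.85e-04), Tlr7 of -0.82 (adjusted p = 9.14e-04) and Ly96, the lipopolysaccharide co-receptor MD-2, of -0.63 (log2 ratios -0.63 and -0.64, adjusted p = 8.37e-04).

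Extracellular matrix genes formed a second group of increases. Of 12 small leucine-rich proteoglycans, which organize collagen fibrils, 3 rose and 0 fell, with a median log2 ratio of 0.47. These were Lum, Dcn and Fmod. Dcn, encoding decorin, read 138000 with MAA and 66400 without on replicate 1 and 108000 and 50000 on replicate 2 (2.12-fold, adjusted p = 0.00611). Fmod, encoding fibromodulin, read 21700 against 12600 and 17600 against 10200 (1.72-fold, adjusted p = 0.00435). Of 28 collagens 4 rose and 1 fell (2 and 0 with normexp correction). Col14a1, a fibril-associated collagen, had log2 ratios of 2.05 and 1.84 (adjusted p = 0.00704), Col23a1 of 1.80 and 1.71 and Col11a1 of 0.86 and 0.84. A second measured probe of Col11a1, at 0.41, was not called. The main fibroblast collagens Col1a1, Col1a2 and Col3a1 had log2 ratios of 0.06, -0.26 and 0.28 and were not called. Of 18 matrix metalloproteinases and their inhibitors 4 rose and 1 fell (3 and 1 with normexp correction). Mmp3, stromelysin-1, read 435 against 146 and 341 against 122 (2.89-fold, adjusted p = 1.61e-04), and its neighbor Mmp10, stromelysin-2, read 51.4 against 17.2 and 41.2 against 15.1 (2.85-fold, adjusted p = 0.00929). With normexp correction Mmp10 had a log2 ratio of 0.33 (adjusted p = 0.36) and was not called. Among serpins, inhibitors mostly of serine proteases, 4 of 27 rose and 1 fell (1 and 0 with normexp). Of 28 actin and contractile genes 7 rose and 0 fell, but 1 was called with normexp and neither Lmod1 nor Dmtn was. The 7 included Lmod1 (log2 ratio 2.00), Dmtn (1.30), Acta1 (0.99, adjusted p = 0.00286) and Tagln (0.60, adjusted p = 0.00832). Of 35 integrins, laminins and cadherins 6 rose and 0 fell (2 and 0 with normexp), including Cdh15 (1.68) and Itgae (0.97), and the endothelial cadherin Cdh5 was at least 2.81-fold higher with a signal of 25.8 and 22 in MAA-treated cells.

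Genes of the WNT pathway, in which secreted WNT ligands stabilize beta-catenin, rose in 8 of 31 cases and fell in 0, with a median log2 ratio of 0.15, and 3 were called with normexp correction, Rnf43 and Notum not among them. The called genes included 4 that act as negative feedback on the pathway: Axin2, a scaffold of beta-catenin destruction (log2 ratios 1.82 and 1.51, adjusted p = 0.00277), Nkd1, a Dishevelled antagonist (336 against 87.9 and 288 against 74.0, log2 ratio 1.95, adjusted p = 0.0104), Rnf43, a ligase that removes Frizzled receptors (2.01, adjusted p = 0.0100), and Notum, a WNT deacylase that was at least 1.69-fold higher. They also included the transcription factors Lef1 (1.06) and Tcf7 (0.96), the WNT amplifier Rspo3 (1.44, adjusted p = 0.00469) and the ligand Wnt4 (0.63, adjusted p = 0.00422).

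Among secreted growth factors and their binding proteins, 6 of 45 genes of transforming growth factor beta, activin and bone morphogenetic protein signaling rose and 0 fell. Fstl1, a follistatin-like glycoprotein, read 19100 against 9050 and 16700 against 7500 (2.17-fold, adjusted p = 0.00137), and Id4, Inhba and Bambi had log2 ratios of 0.90, 0.80 and 0.81. In the insulin-like growth factor system 2 of 13 genes rose. Igfbp5, a binding protein, read 952 against 340 and 1110 against 363 (2.93-fold, adjusted p = 2.11e-04), and Igf2, the growth factor itself, read 6160 against 2650 and 5490 against 2290 (log2 ratio 1.24, adjusted p = 0.00197). Of 4 measured CCN matricellular genes 2 rose (1 with normexp), Ccn2 with log2 ratios of 1.30 and 1.31 (adjusted p = 0.00184) and Ccn5 with 0.75 and 0.60. In contrast to Vegfd, which fell, Fgf21 rose (log2 ratios 0.92 and 0.91, adjusted p = 0.00213), and Fgf7, keratinocyte growth factor, fell from 20800 to 10600 and from 19600 to 8830 (log2 ratio -1.06, adjusted p = 5.48e-04). The epidermal growth factor family split: Areg rose (0.78 and 0.72, adjusted p = 0.00686), Tgfa was at least 1.57-fold higher, and Ereg, epiregulin, fell (-0.83 and -0.92, adjusted p = 5.48e-04), and none of the 3 was called with normexp.

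Linker histones, which bind DNA between nucleosomes, rose in 4 of 9 cases with a median log2 ratio of 0.55, and 1 was called with normexp correction, neither H1f3 nor H1f4. H1f3 had a log2 ratio of 1.53 (1.47 and 1.58, adjusted p = 0.00392), H1f4 of 0.98, and H1f2, at 4130 against 2690 and 3680 against 2180, of 0.69 (adjusted p = 0.0107). Core histones rose in 5 of 27 cases, H2bc4, H3c1 and H2bc1 with log2 ratios of 0.86, 0.83 and 0.81. Histone genes are similar in sequence and cross-hybridization between them cannot be told apart from separate changes here. None of 17 histone deacetylases and sirtuins was called, with log2 ratios from -1.12 to 0.40. Of 21 immediate early transcription factors 2 rose (1 with normexp), Jun (log2 ratios 0.94 and 0.83, adjusted p = 0.00138) and Egr2 (0.64 and 0.66, adjusted p = 0.00754), and none of 16 inhibitors of extracellular signal-regulated kinase signaling passed, with a range from -0.41 to 0.79. Of 42 genes of DNA replication and mitosis 1 was called, the ribonucleotide reductase subunit Rrm1 (-0.56 and -0.75, adjusted p = 0.0104), although the list had a median log2 ratio of -0.20, and its values ran from -0.65 to 0.09.

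Metabolic genes moved in both directions. Slc2a4, the insulin-responsive glucose transporter GLUT4, read 228 against 49.8 and 196 against 42.3 (4.61-fold, adjusted p = 3.93e-04), but with normexp correction its log2 ratio was 0.94 (adjusted p = 0.0744) and it was not called. A further 3 genes of the 27 in the sugar transport and glycolysis list rose (1 of the list with normexp), Pfkp at 0.65, Aldoc at 0.62 and Eno2 at 0.59. Angptl4, an inhibitor of lipoprotein lipase, fell from 20000 to 9790 and from 18200 to 9020 (log2 ratio -1.02, adjusted p = 2.60e-04), whereas the fatty acid carrier Fabp4 rose (0.75, all 3 probes called). With normexp correction Angptl4 was still called, but Fabp4 had 0.42 and was not. Gpx1, the main cytosolic glutathione peroxidase, fell from 29500 to 16600 and from 26300 to 15500 (-0.80, adjusted p = 7.09e-04) by the brighter of its probes, the other having 0.13 without a call, and its paralog Gpx6 was at least 1.72-fold higher at a signal near background. Among 33 nuclear receptors 3 rose and 1 fell (1 and 1 with normexp). Rarb, a retinoic acid receptor that is itself induced by retinoic acid, had log2 ratios of 2.27 and 2.75 (adjusted p = 3.71e-04; 0.53 and not called with normexp) and Nr1h4, the bile acid receptor FXR, of -0.95 and -0.97 (adjusted p = 1.95e-04). Of 21 alcohol and aldehyde dehydrogenases 4 rose and 1 fell (0 and 1 with normexp). Those that make retinoic acid were split, with Aldh1a2 at 1.16 (adjusted p = 0.0248), Aldh1a3 at 0.97 (adjusted p = 0.0443) and Aldh1a1 at -0.88 (adjusted p = 0.00329). With normexp correction Aldh1a2 had 0.42 and Aldh1a3 0.55, and neither was called. None of 24 genes of cholesterol synthesis and uptake was called, with log2 ratios from -0.53 to 0.45 and a median of 0.12.

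Potassium channel genes rose in 6 of 29 cases and fell in 1, although 0 of them were called with normexp correction, and Kcnv2 (log2 ratio 1.47) and Kcnj4 (1.16) followed Kcnmb4. A second measured probe of Kcnj4, at 0.22, was not called. Of 17 prostaglandin genes 3 rose, Hpgd (1.11), Ptgds (1.05) and Ptgdr (0.89), and 2 fell (0 and 1 with normexp). Among 13 BCL2 family genes 1 rose and 2 fell (1 and 0 with normexp). Pmaip1 rose (0.67, adjusted p = 0.00464), whereas Bcl2l11 (-0.65, adjusted p = 0.00215) and Bad (-0.65, adjusted p = 0.025) fell. All 3 encode proteins that promote cell death. Of 15 circadian clock genes 3 rose (1 with normexp), Hlf (0.78), Per2 (0.72) and Nr1d1 (0.68). The other measured probes of Per2 (0.36) and Nr1d1 (0.30) were not called. Hey1, a Notch target, rose (1.25, adjusted p = 0.00181), Mfng was at least 1.57-fold higher and Dhh, the hedgehog ligand of the testis, at least 1.87-fold higher. HOX genes rose in 2 of 31 cases and fell in 2 (1 and 1 with normexp, Hoxb13 not among them), Hoxb13 with a log2 ratio of 1.64 (adjusted p = 0.00315), Hoxc13 of 0.75 and Hoxc6 of -0.77. Of 41 measured genes of phosphoinositide and calcium signaling 2 were called up (4.88%, beside 5.61% of all measured genes) and 0 down. These were Itpka and Plcd1, with log2 ratios of 1.16 and 0.92. Chac1, a glutathione-degrading enzyme of the unfolded protein response, had 0.65, Gadd45g 0.64, Acvrl1 was at least 1.73-fold higher, and Slc16a6 had 1.24 while Slc16a10 was at least 1.59-fold higher. Of 11 measured neuronal genes 2 were called up, among them Mapt (1.14), and 0 with normexp. Abca5, Abcc12 and Abca8b were the called genes of 31 ABC transporters (1.00, 0.86 and 0.79), and 0 were called with normexp. Pcdhb19 (-0.68) and Pcdh7 (-0.64) fell among 31 protocadherins, and none of 13 germline genes was called.

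Steroid synthesis is the specialized task of Leydig cells. The list for it had 20 genes on the array, of which 11 were measured, 1 was called up (9.09%, beside 5.61% of all measured genes) and 0 down. The called gene was Shbg, which encodes the sex hormone binding globulin, an androgen carrier and not an enzyme of synthesis. No other gene of the list was called. Shbg read 67.3 against 26.1 and 55.5 against 20.2 (log2 ratio 1.41 ± 0.183 SE, adjusted p = 0.00396), and with normexp correction had 0.37 (adjusted p = 0.0957) and was not called. Cyp17a1, the enzyme that leads from pregnenolone to androgens, had log2 ratios of -0.19 and 0.10 (adjusted p = 0.872), Star, which carries cholesterol into mitochondria, a mean of -0.24, and Hsd17b11 of -0.08 and -0.21 (adjusted p = 0.389). Cyp11a1 was not above background in either channel and no change can be given. Insl3, the Leydig cell hormone that guides testis descent, had -0.18 and 0.07 (adjusted p = 0.808) and a mean of -1.11 at 5 mM (difference 1.05 ± 0.176 SE, adjusted p = 0.0133), and Rhox5, a homeobox gene of the testis, 0.33 and 0.31 (adjusted p = 0.0415), below the fold threshold. Of the genes followed by PCR in the study, Itpka (1.14 and 1.18, adjusted p = 3.03e-04), Kcnab3 (1.02 on both arrays, adjusted p = 1.85e-04) and Ly96 were called here. So was Shbg, given above. With normexp correction only Itpka of these was called, Kcnab3 having 0.55 and Ly96 -0.51. Pcdhb15 had -0.32 and -0.37 (adjusted p = 0.0219), Abca9 -0.35 and -0.39 (adjusted p = 0.372) and Igfbp3 0.10 and 0.00 (adjusted p = 0.92), and Rasgrp2 was not above background. By PCR the study reported Rasgrp2 as raised at every time at both concentrations. It also reported more Cyp17a1 in MAA-treated cells by PCR, a change that its arrays did not show.

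The response was next set beside that to 5 mM MAA at the same time. Both were hybridized against untreated cells of 24 h. Whether these were the same RNA is not given in the sources used here, so the ratios at the 2 concentrations may not be independent, and the difference was tested within the fit. It passed an adjusted p of 0.05 for 3230 of 28012 measured probes (11.5%) and for 492 of the 1678 calls. Since the calls were chosen on the 1 mM ratios that the difference contains, these shares are not comparable. Of the 1198 increases, 222 were smaller than at 5 mM and 159 were higher at 1 mM; of the 480 decreases, 67 were smaller than at 5 mM and 44 were lower at 1 mM. The median log2 ratio of the called increases was 0.91 at 1 mM and 1.07 at 5 mM, and that of the decreases was -0.76 and -0.79. Leaving out any 1 of the 4 arrays reduced the count to between 168 (without replicate 2 of 1 mM) and 224, and normexp correction to 235.

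Among the calls that differed, 47 rose at 1 mM and fell by more than 1.5-fold at 5 mM, and 2 did the reverse. Fam180a, a secreted protein of unknown role, read 16700 against 6170 and 12800 against 4680 at 1 mM, log2 ratios of 1.44 and 1.45, and had -2.64 and -2.53 at 5 mM (difference 4.02 ± 0.140 SE, adjusted p = 9.01e-05). Mmp3 had 1.58 and 1.49 at 1 mM and -2.12 and -1.87 at 5 mM (difference 3.53 ± 0.112 SE, adjusted p = 9.01e-05). Fap, the fibroblast activation protein, and Il20ra, a receptor chain for interleukin 20, differed by 3.49 (adjusted p = 0.0211) and 3.47 (adjusted p = 0.0029), but at 1 mM their MAA signals were no higher than 42.0 and with normexp correction their log2 ratios were 0.35 and 0.30. Col14a1 had a mean log2 ratio of 1.95 at 1 mM and -1.17 at 5 mM (adjusted p of the difference = 0.00581), Dcn 1.08 and -0.57 (adjusted p = 0.00599) and Fmod 0.78 and -0.41 (adjusted p = 0.00439). For these 3 genes and for Fam180a and Mmp3 the difference also passed with normexp correction, with adjusted p between 7.75e-07 and 0.00218. Lum and Fstl1 behaved otherwise: Lum had 2.29 and 1.89 (difference 0.40 ± 0.241 SE, adjusted p = 0.417) and Fstl1 1.12 and 1.17 (difference -0.05 ± 0.155 SE, adjusted p = 0.883).

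**Figure D5:**
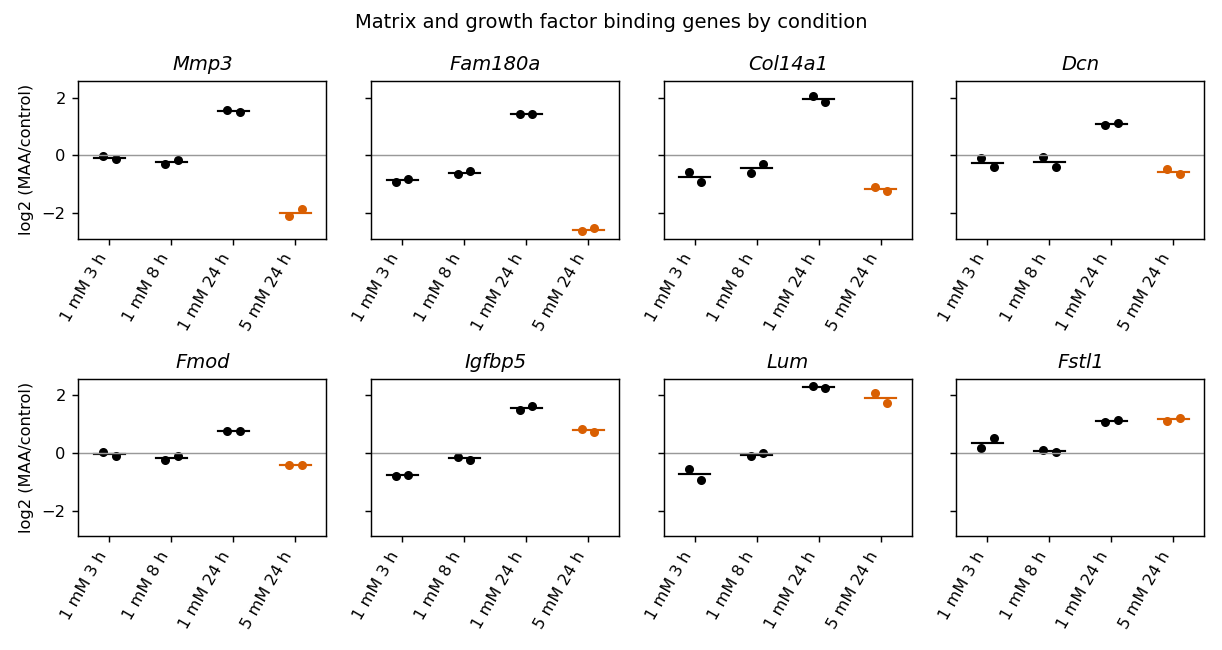
Each panel shows log2 ratios of MAA over control for 1 gene on the 2 arrays of each condition (points, replicate 1 left of replicate 2) with their mean (line), for 3, 8 and 24 h of 1 mM MAA in black and 24 h of 5 mM MAA in orange. Mmp3, Fam180a, Col14a1, Dcn and Fmod lie above 0 at 1 mM, 24 h, and below 0 at 5 mM, 24 h, whereas Igfbp5, Lum and Fstl1 lie above 0 in both.

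The 47 probes included 34 with a gene symbol, for 29 genes, and those named here were chosen after their values were seen. They held the complement component C4b (1.25 and -1, adjusted p of the difference = 9.35e-04). They held both probes of the matrix glycoprotein tenascin C, Tnc, at 1.66 and 1.14 against -1.79 and -1.41, the proteoglycan Epyc (1.36 and -1.28), the F-box genes Fbxw14, Fbxw16 and Fbxw26, which are close relatives, and Trf, transferrin (1.06 and -0.71). The 2 probes that were lower at 1 mM and higher at 5 mM belonged to Ptgs2, cyclooxygenase-2 (-0.71 and 0.65, adjusted p = 0.00622), and Calcrl (-1.28 and 0.67, adjusted p = 0.0235).

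Other genes rose at 1 mM and had a lower ratio, not past the opposite threshold, at 5 mM. Prr9 had log2 ratios of 0.21 and 0.05 at 5 mM (difference 2.60 ± 0.349 SE, adjusted p = 0.006), Serpinb7 a mean of -0.04 (difference 1.39 ± 0.289 SE, adjusted p = 0.0279), Hpgd, the enzyme that degrades prostaglandins, -0.12 (adjusted p = 0.0131), Fgf21 -0.40 (adjusted p = 0.00285) and Slc16a6 -0.09 (adjusted p = 0.0116). Speer4d and Gm9758 were 1.48 ± 0.164 SE and 1.58 ± 0.159 SE higher at 1 mM (adjusted p = 0.00306 and 0.0022), and Fmo2 and Rarb by 1.39 (adjusted p = 0.0435) and 1.79 (adjusted p = 0.00581). With normexp correction the difference did not pass for Speer4d (adjusted p = 0.328), Gm9758 (0.207), Rarb (0.18), Hpgd (0.472) or Slc16a6 (0.101). In the other direction, Areg had a mean of 0.75 at 1 mM and 3.30 at 5 mM (difference -2.55 ± 0.158 SE, adjusted p = 6.11e-04), Gch1, the first enzyme of tetrahydrobiopterin synthesis, 0.86 and 3.12 (adjusted p = 1.68e-04), Best1, a chloride channel, 1.46 and 3.86 (adjusted p = 0.0103), and Mgarp, whose control channel was not well above background, 1.92 and 4.46 (adjusted p = 0.0217). Slc2a4 and Kcnab3 were likewise lower at 1 mM, with 2.21 and 3.98 for Slc2a4 (adjusted p = 0.0041) and 1.02 and 2.09 for Kcnab3 (adjusted p = 0.00111). For Cd52, Chst1 and Igf2 the difference did not pass: it was -0.04 ± 0.269 SE for Cd52 and -0.13 ± 0.0855 SE for Chst1, and the adjusted p for Igf2 was 0.939.

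Promoter sequence was available for 9450 of the 11838 measured genes and was searched over 250 bases upstream of the start (RefSeq, GRCm38.p6) for short motifs on both strands. Some genes had more than 1 annotated start, with 32851 windows for 27025 genes. A gene counted as holding a motif if any of its windows did, so the shares depend on the number of starts. The AP-1 site, bound by Jun and Fos dimers, was searched as TGAGTCA and its reverse complement TGACTCA. Among genes with promoter sequence, it was found in 7 of the 64 that rose and were higher at 1 mM than at 5 mM (10.9%) and in 6 of the 88 that rose less than at 5 mM (6.82%). It was held by 35 of 468 increased genes (7.48%) and 9 of 75 decreased genes (12%). The share was 4.14% of 8907 measured genes that were not called and 5.16% of all 27025 genes with promoter sequence. The GC box GGGCGG (reverse CCGCCC) was held by 29.7% of the genes higher at 1 mM, 55.7% of those higher at 5 mM and 61% of genes not called. The median number of CG pairs, taken from each gene's window with the most, was 4, 11 and 16. The called probes were also dimmer than the rest in control cells, as given above, and the part of expression level in these shares was not tested. The 150 bases upstream of the start are shown for 4 genes that rose at 1 mM and had a lower log2 ratio at 5 mM. These were picked because they hold the AP-1 letters, printed in capitals. They do not stand for the genes higher at 1 mM, of which 7 of 64 held the site. The stretches are Prr9 at chr3:92123948-92124097 (minus strand), Mmp3 at chr9:7445672-7445821 (plus), Mmp10 at chr9:7502192-7502341 (plus) and Fam180a at chr6:35326142-35326291 (minus).
Prr9: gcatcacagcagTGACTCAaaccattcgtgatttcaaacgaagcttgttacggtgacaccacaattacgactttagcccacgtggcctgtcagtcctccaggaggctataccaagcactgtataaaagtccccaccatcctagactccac
Mmp3: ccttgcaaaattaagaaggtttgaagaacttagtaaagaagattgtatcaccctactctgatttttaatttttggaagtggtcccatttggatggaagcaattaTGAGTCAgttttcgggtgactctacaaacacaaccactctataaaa
Mmp10: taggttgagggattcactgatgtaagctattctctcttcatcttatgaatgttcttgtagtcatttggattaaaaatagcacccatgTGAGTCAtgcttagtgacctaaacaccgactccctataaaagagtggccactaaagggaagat
Fam180a: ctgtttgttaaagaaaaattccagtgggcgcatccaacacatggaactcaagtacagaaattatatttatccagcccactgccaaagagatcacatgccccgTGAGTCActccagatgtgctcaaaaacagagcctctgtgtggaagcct
The site began 46 bases before the annotated start in Mmp3, 48 in Fam180a, 63 in Mmp10 and 138 in Prr9, and Prr9, Mmp3 and Mmp10 also held TATAAA close to the start. For Mmp10 the difference between the concentrations did not pass (adjusted p = 0.0799), and with normexp correction its increase was not called.

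Finally, the 24 h ratios were compared with those at 3 h and 8 h of 1 mM MAA. Of the 1678 calls, 170 were called in the same direction at 3 h and at 8 h, 68 at 3 h but not 8 h, 314 at 8 h but not 3 h, and 1126 at neither. The share of all measured probes called at 3 h or 8 h is not given here, so these counts have no background to be read against. For those 1126 the difference passed the test for 304 against 3 h, 126 against 8 h and 115 against both. The difference from 3 h passed an adjusted p of 0.05 for 724 of the measured probes (2.58%) and for 426 of the calls, of which 225 were larger at 24 h in the same direction and 196 had the opposite sign at 3 h, 24 of them past 1.5-fold there. The difference from 8 h passed for 226 measured probes (0.807%) and 145 calls. The calls were chosen on the 24 h ratios that both differences contain. The counts among calls are therefore not comparable with the shares of measured probes, and a larger change at 24 h is in part fixed by that choice. These counts were sensitive to single arrays: without replicate 1 or 2 of 24 h the 3 h count was 34 or 39 and the 8 h count 0 or 6, without replicate 1 or 2 of 3 h it was 163 or 58, and without either array of 8 h the 8 h count was 0, when 639 and 792 calls still had an unadjusted p under 0.05. With the replicate number, which is also the dye orientation, as a block, the counts were 793 and 338. Fmo2, Speer4d, Gm9758, Lum, Mmp3, Igfbp5, Peg10 and Nr1h4 differed from both earlier times. Nr1h4 moved from 0.25 at 3 h and 0.01 at 8 h to -0.96, and Igfbp5 from -0.78 and -0.18 to 1.55. In contrast, Shbg (0.90, 1.57 and 1.41), Itpka (1.01, 1.11 and 1.16), Kcnab3 (1.16, 1.2 and 1.02), Hey1 (1.26, 0.68 and 1.25), Slc2a4 (2.74, 2.20 and 2.21) and Ly96 (-0.55, -0.66 and -0.63) had log2 ratios, in order of time, for which the test of a difference was not passed. Areg had its highest ratio at 3 h, 2.28, and 1.63 at 8 h (adjusted p of the difference from 3 h = 0.0081).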

How the data were processed

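The arrays were scanned by the authors, and background subtraction, detrending and dye normalization (linear, then LOWESS) were done array by array in Agilent Feature Extraction 9.5.3.1. The deposited scanner files hold these intensity values with flags and spot positions, and the deposited value table holds log10 ratios of MAA over control to 2 decimals. Control spots and spots marked as outliers were left out here, repeated spots were averaged, and log2 ratios were taken for 41174 probes without centring between arrays. Symbols were given to 22082 probes through RefSeq tables of assembly GRCm38.p6.

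All 12 arrays were fitted with 1 coefficient per condition in limma 3.58.1 (R 4.3.3; 6 residual and 1.515 prior degrees of freedom), with Benjamini-Hochberg adjustment over all probes, and the fit was tested on simulated data. Calls used the study's cut-offs at 1 mM, a p below 0.005 before adjustment with more than 1.5-fold change, but limma's p in place of the p-values that the study took from Rosetta software. The number of arrays limits the precision. Named genes were the 12 called increases and 12 called decreases of largest log2 ratio that exceeded 1.5-fold on each array with all channels well above background, the 5 largest per direction given as bounds (3 decreases had a symbol), up to 3 called genes per list, genes the study names, and 4 called genes per direction of largest difference from 5 mM. Some of these genes are not reported here. Other genes were named after their values were seen. A gene in a list was read by its probe of highest mean signal. The members and lists were chosen with earlier results of these data known. Same-numbered arrays deviated together in all 15 pairs of conditions (correlations of 0.169 to 0.703 over measured probes), which follows the dye orientation. Alternatives covered background correction, the ratio used, centring, dim probes, outlier spots, blocks, thresholds and the arrays in the fit. Python 3.11.15 with matplotlib 3.10.9 drew the figures.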

Additional observations from a re-analysis of the deposited data

Results flagged for a closer look

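The ratio at 1 mM MAA, 24 h, differed from that of another condition by the test of the difference (adjusted p under 0.05) for 492 calls against 5 mM at 24 h, 426 against 1 mM at 3 h and 145 against 1 mM at 8 h. The log2 differences of the named genes of largest change, and of those named for the comparison with 5 mM, are given here as the 24 h, 1 mM ratio minus the other.

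Against 5 mM at 24 h, Fam180a differed by 4.02, Mmp3 by 3.53, Fap by 3.49, Il20ra by 3.47, Prr9 by 2.60, Serpind1 by 2.13, Evi2a by 1.85, Gm9758 by 1.58, Speer4d by 1.48, Fmo2 by 1.39, Spata9 by 1.22 and Dpep2 by 1.11. Negative differences were found for Areg (-2.55), Mgarp (-2.54), Best1 (-2.40), Gch1 (-2.26), Calcrl (-2.03), Srgn (-1.62), Tmem255a (-1.20) and Apon (-0.68).

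Against 1 mM at 3 h, Prr9 differed by 3.30, Lum by 3.03, Fmo2 by 2.70, Cd52 by 2.54, Speer4d by 2.49, Gm9758 by 2.41, Fam180a by 2.31, Mmp3 by 1.61, Tmem255a by 1.52 and Chst1 by 1.12, and Peg10 by -1.73, Prl2c3 by -1.67, Prl2c5 by -1.63, Areg by -1.53, Cp by -1.27, Evi2a by -1.17 and Vegfd by -0.98. Against 1 mM at 8 h, Lum differed by 2.35, Fmo2 by 2.31, Speer4d by 2.17, Gm9758 by 2.12, Fam180a by 2.04, Mmp3 by 1.76, Tmem255a by 1.27 and Chst1 by 1.17, and Peg10 by -2.29, Apon by -1.11 and Prl2c3 by -1.01. The differences from 8 h rest on all 4 arrays concerned, since without any 1 of them between 0 and 6 calls passed.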

How the results depend on the processing

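The 135 named probes that were called kept their direction under every alternative in which they had a value, and 33 kept the call in all of those; with only probes above background on all 12 arrays, 96 of 144 named probes had one. The 1678 calls (1198 up, 480 down) became 500 (407 and 93) with normexp correction at an offset of 50 and loess, 621 (505 and 116) at 2-fold and 764 (663 and 101) with 1 probe per gene symbol, and leaving out either 24 h array gave 1113 to 1144 calls, 841 to 883 up and 261 to 272 down. The 492 calls that differed from 5 mM at 24 h became 235 with normexp, 199 at 2-fold, 314 with 1 probe per gene and 168 to 224 without 1 array, and in a fit of the 4 arrays of 24 h alone, with 2 residual degrees of freedom, limma called 0, with 961 at an unadjusted p under 0.05. The 426 that differed from 3 h became 136 with normexp, 230 at 2-fold, 237 with centred arrays, 640 with the scanner's log10 ratio, 669 with probes above background on all 12 arrays, 649 with the slide as a block, 793 with the replicate block and 34 to 163 without 1 array. The 145 that differed from 8 h became 58, 94, 63, 292, 303, 71 and 338 under the same 7 settings, 279 with the authors' value table and 0 to 6 without 1 array. In the 6 arrays of 1 mM alone limma called 0 differences from 3 h and 0 from 8 h, with 1114 and 806 at an unadjusted p under 0.05. Apart from the differences from 3 h and 8 h, the replicate block moved no count by over 1.5 times: the 1678 calls became 1731, of which 1593 were shared, and the 492 differences from 5 mM 695. Counting only probes above background in both channels, added after seeing the data, gave 1444 calls. The cause of these shifts was not tested. Weak signals limit the folds of dim genes.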
